A study of Mus musculus with 12 samples.

Results

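The Zfp genes are mouse genes named for a zinc finger protein by the symbol Zfp and a number. Of 15217 genes in the deposited table, 341 carried such a symbol once Zfp36, which codes for an unrelated kind of zinc finger protein, was left out. The 212 described here were chosen by their measured level, a mean of at least 20 counts over the 12 libraries, and the group was proposed for its total RNA over the 6 groups and its new RNA share over the 8 labelled libraries. Levels and shares below are therefore a description. Zfp959, Zfp850 and Zfp9 lay just outside with means of 19.98, 19.58 and 19.54 counts, and Zfp760, Zfp689 and Zfp661 just inside with 20, 20.17 and 20.42 counts.

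The genes were measured by SLAM-seq in wild-type NIH-3T3 cells, a long-established mouse fibroblast line. RNA made during labelling takes up 4-thiouridine (4sU) in place of some uridine, and once alkylated with iodoacetamide these bases are read as C. The chemical conversion took place inside methanol-fixed cells or on isolated RNA in tubes, and per the labels' protocols these procedures also differed in reaction temperature and duration. The groups were fixed cells without 4sU, at 200 µM and at 800 µM, and tubes without 4sU, at 200 µM and at 800 µM, with 2 libraries (A and B) in each and 2 h of labelling. The labels do not state whether A and B came from separate cultures, so the p-values reflect the spread between libraries alone, which may be technical.

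C2H2 zinc fingers are short folds in which 2 cysteines and 2 histidines hold a zinc ion. A protein with a row of such fingers can read a stretch of DNA, finger by finger. Many of the mouse genes also code for a KRAB box, which recruits the corepressor TRIM28, and through it histone methyltransferases and heterochromatin proteins. These KRAB zinc finger genes lie in clusters of near copies and are best known for silencing transposable elements. Other members have no DNA-binding role and act on RNA, ribosomes or the spindle.

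Library totals ranged from 3629634 to 7762635 counts, and the 212 genes together took 0.313% to 0.5073% of them. TMM scaling factors ranged from 0.8346 in fixed 800 µM library A to 1.1461 in tube library A without 4sU. All 10 fibroblast markers looked at were present, with a summed level of 17332 to 19720 CPM (for markers, counts scaled by plain library totals). Epithelial and endothelial markers reached at most 1.127 and 1.409 CPM in sum. Leukocyte markers summed to 3.053 to 10.041 CPM. The CPM values below are counts scaled to a common library size with TMM factors.

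A repeated finger is what these genes share in sequence. A pattern search of the coding sequences of GENCODE M21 (GRCm38) found a median of 10 fingers in the 211 genes with a coding transcript, and 36 in Zfp142. A regular unit of 84 bases, from one finger's first cysteine to the base before the next finger's, occurred in 144 of them. One such unit is shown for 3 members whose new RNA share is described below (Zfp26, Zfp266 and Zfp180) and for the near-identical pair Zfp991 and Zfp992. Capitals mark the codons of the 2 cysteines and 2 histidines.
Zfp26: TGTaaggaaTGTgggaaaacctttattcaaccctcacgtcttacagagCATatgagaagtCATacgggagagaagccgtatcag
Zfp266: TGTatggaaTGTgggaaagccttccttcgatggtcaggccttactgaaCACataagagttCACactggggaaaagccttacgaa
Zfp180: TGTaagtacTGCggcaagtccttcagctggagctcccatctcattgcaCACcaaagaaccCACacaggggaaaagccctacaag
Zfp991: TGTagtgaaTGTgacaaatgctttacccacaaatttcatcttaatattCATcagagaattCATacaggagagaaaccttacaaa
Zfp992: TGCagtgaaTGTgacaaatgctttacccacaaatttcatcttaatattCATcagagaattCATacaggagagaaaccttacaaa
The units of Zfp991 and Zfp992 were identical at 83 of 84 bases (98.81%), and those of the chromosome 9 neighbours Zfp26 and Zfp266 at 60 (71.43%). Zfp26 with Zfp180, which lies on chromosome 7, had 50 identical bases (59.52%). Among the 5 units, identity was lowest between Zfp266 and Zfp992 (57.14%).

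A KRAB box pattern was found in 101 of the 211 genes and a SCAN domain pattern, a protein-protein contact of the same family, in 8. The patterns can miss divergent boxes. Genes with the KRAB pattern had a median of 12 fingers, against 7 in the 110 without it. Of the 212, 51 lay on chromosome 7, 28 on chromosome 17 and 17 on chromosome 8. Another member lay within 200 kb of 102 of them, and 74 of the 101 KRAB genes had such a neighbour, against 28 of the 110 others. No finger was found by the pattern in Zfp703, Zfp330, Zfp365 and Zfp503.

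Near copies bear on what a count means. Of the 212 genes, 95 had whole-number counts in all 12 libraries (within 0.001), and 3 had fractional counts in all 12, as arise when a read is divided between genes. Per library, 14.15% to 21.23% of members had a fractional count, against 21.48% to 29.14% of genes with a mean of at least 20 counts. The members' share was the lower in each library, and the part of count depth in this was not tested. At least 10% of the 50-base windows of 27 genes also occurred in another gene, and 109 genes shared none. Zfp991 (chr4:147132038-147180579) shared 86.975% and Zfp992 (chr4:146449023-146470292) 43.701% of such windows, and both had fractional counts in all 12 libraries. Their levels are therefore uncertain.

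The genes were low in level. The median of their mean counts was 72.6, and 72 of the 212 had a mean of at least 100. KRAB genes had a median mean count of 48.7, against 104.4 for those without the pattern. Per length, the level was highest for Zfp207, a spindle protein that binds the checkpoint protein Bub3, at 65.55 CPM per kb (lowest library 50.04, highest 90.46). It was followed by Zfp593 at 47.84 CPM per kb, whose yeast relative acts in export of the large ribosomal subunit, by Zfp771 at 41.51, by Zfp428 at 34.07 and by Zfp622 at 29.36, whose yeast relative also acts in large subunit assembly. Zfp706, known for a role in exit from self-renewal in mouse embryonic stem cells, came next at 27.34 CPM per kb. The ranges over libraries of Zfp593 (41.48 to 61.09) and Zfp622 (25.50 to 33.31) did not overlap.

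The share of new RNA asked how much of each transcript pool had been made in the 2 h of labelling. The deposited new-to-total ratio is the authors' estimate of that share, and the table gives it for the 8 labelled libraries only, so no background from unlabelled cells can be set beside it. It was read at genes with at least 100 counts in each of those libraries, which 43 of the 212 members and 5532 of all genes reached. Averaged over the libraries, the ratio had a median of 81.192% over the 43 members, against 35.331% over all 5532 genes. Of the 43, 41 lay above that median of all genes, and 11 (25.581%) averaged over 90%, against 5.694% of all genes. Members with fewer counts could not be set against that bar, but over all 212 members the median was 84.918%, against 43.535% over the genes with a mean of at least 20 counts.

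The order held in each library. In fixed cells the median of the 43 members was 85.59% and 83.47% at 200 µM and 64.19% and 82.32% at 800 µM, against 35.68% and 34.845% and then 25.95% and 32.08% over all genes. In tubes the members' median was 76.31% and 85.99% at 200 µM and 78.77% and 79.98% at 800 µM, against 39.845% and 42.31% and then 36.2% and 36.395% over all genes. Fixed 800 µM library A was the lowest for members and for all genes. It is also the library with the lowest scaling factor, and its part in the results was not tested beyond leaving it out.

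**Figure D1:**
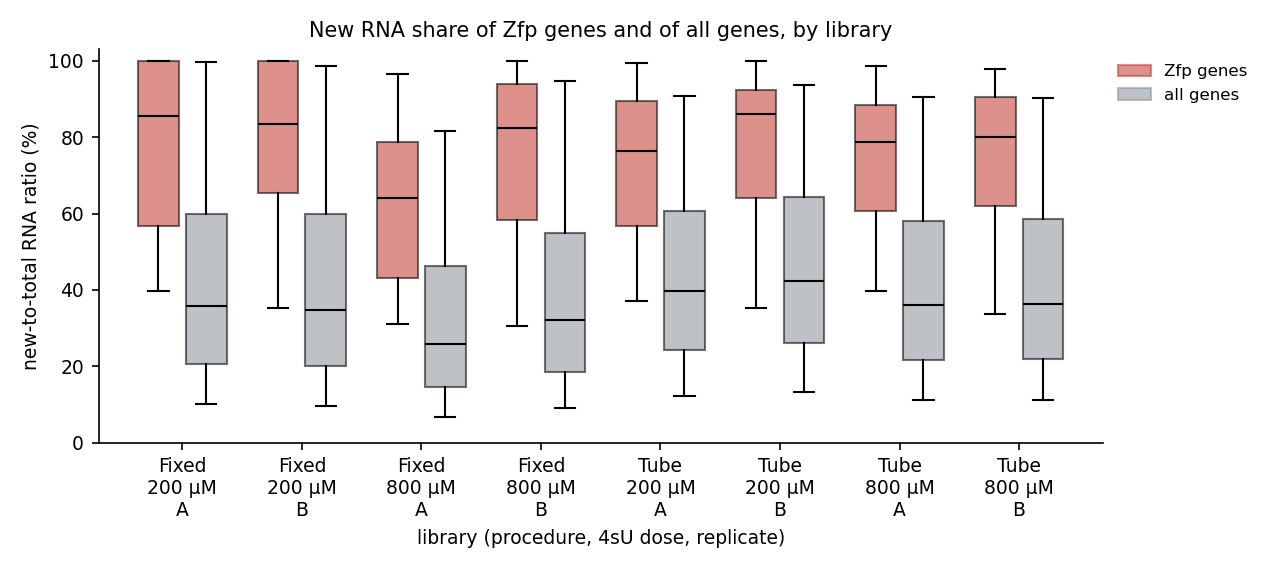
New-to-total RNA ratio (%, vertical axis) in each of the 8 labelled libraries, for the 43 Zfp genes (red) and all 5532 genes (grey) with at least 100 counts in each. Boxes span the quartiles with the median as a line, and whiskers run from the 5th to the 95th percentile of genes. The red medians lie between 64.19% and 85.99%, above every grey median (25.95% to 42.31%).

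The highest ratio was that of Zfp770, a C2H2 protein of little known function, whose RNA was estimated as 100%, 100%, 95.09% and 100% new in fixed cells (200 µM A and B, then 800 µM A and B) and as 100%, 100%, 99.55% and 100% new in tubes. Zfp281, a regulator of pluripotency genes, averaged 96.705% ± 5.045 (SD over 8 libraries). Zfp24, a SCAN protein, averaged 95.114% ± 5.951. Zfp292, known as an activator of the growth hormone gene, averaged 94.638% ± 7.093, and Zfp263, another SCAN protein, 94.394% ± 6.534. The libraries of these 5 genes overlapped.

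The lowest ratio was that of Zfp106 (chr2:120506820-120563843), an RNA-binding protein needed by motor neurons. It was 23.48%, 18.63%, 15.17% and 18.06% in fixed cells and 22.62%, 22.28%, 19.04% and 27.02% in tubes, in the order above. No library of Zfp106 reached the lowest library of Zfp706 (36.154% ± 3.122, lowest 30.68%). Zfp593 averaged 29.298% ± 6.159, Zfp326, which couples transcript elongation to splicing, 40.481% ± 7.035, and Zfp428 43.774% ± 6.203. Of these 5 genes, all but Zfp428 belong to the 11 members listed for roles in RNA, translation or ribosomes. The list was drawn up with earlier results of these data known. It also holds Zfp706, Zfp207 and Zfp451, which are described here by other roles. The 8 genes of that list with enough counts had library medians of 36.01% to 55.975%. The list was not uniform, since Zfp622 averaged 91.64% ± 7.737 and Zfp451, a SUMO ligase, 82.902% ± 5.071.

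Among members, the 9 KRAB genes with enough counts had library medians of 87.47% to 96.91%, against 56.925% to 80.975% for the 34 without the pattern. Over all members, whatever their counts, the medians were closer, at 81.98% to 93.08% for the 101 KRAB genes, against 65.565% to 89.075% for the 110 others. In fixed 200 µM library B, for one, they were 92.19% and 89.075%. Zfp26 (chr9:20428449-20460162) had 100%, 100%, 61.54% and 89.78% in fixed cells and 100%, 100%, 90.45% and 95.7% in tubes. Its neighbour Zfp266 (chr9:20495068-20521417) had 83.9%, 87.39%, 67.99% and 95.39% in fixed cells and 93.76%, 97.6%, 89.99% and 86.2% in tubes. In both genes the lowest value was in fixed 800 µM library A. The pair with shared sequence, which did not reach 100 counts in each library, had averages of 38.854% ± 15.566 for Zfp991 and 47.535% ± 9.049 for Zfp992, at counts as low as 35.57 and 41.57 in a library. Their ratios carry the same uncertainty as their counts.

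**Figure D2:**
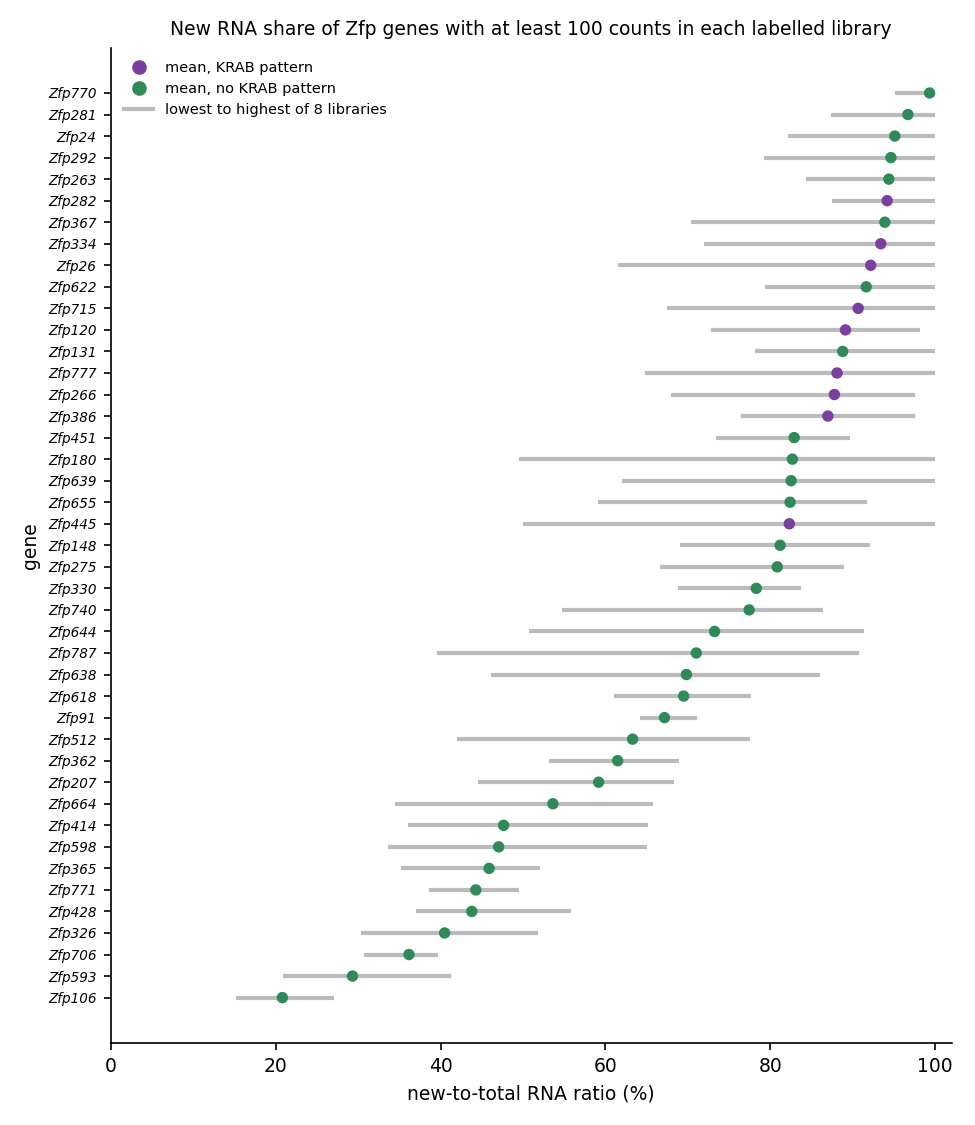
Mean new-to-total RNA ratio (%, horizontal axis) over the 8 labelled libraries for each of the 43 Zfp genes with enough counts, ordered by the mean. Dots are means, purple with and green without the KRAB pattern, and grey bars run from the lowest to the highest library. Means run from 20.8% in Zfp106 to 99.3% in Zfp770, and the lowest purple dot is at 82.3%.

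The ratio was then compared between procedures and doses, with limma on the logit scale and adjustment over 5532 genes. No member passed at an adjusted p of 0.05 in any of the 4 comparisons, nor did any gene (percent called 0.0 in each), and the posterior mean in place of the most probable value also gave 0 calls among members. At an unadjusted p below 0.05, 6 members were higher and 2 lower in fixed cells than in tubes at 200 µM, and 1 was higher and 1 lower at 800 µM. These were 14.0% and 4.65% of the 43 members at 200 µM, against 3.36% and 15.4% of all genes, and 2.33% and 2.33% at 800 µM, against 0.542% and 19.8%. At 200 µM, 27.907% of the 43 members had a ratio of 100% in each fixed library, against 6.977% and 9.302% in tubes. Over all genes the shares were 5.043% and 4.682% in fixed cells, and 1.555% and 2.169% in tubes. Ratios of 100% were held at the upper bound of the logit fit, so p values resting on them depend in part on that bound. The part of this ceiling in the counts of members was not tested. Between 800 µM and 200 µM, 0 members were higher and 9 lower in fixed cells, and 1 was higher and 3 were lower in tubes. The lower ones were 20.9% of members in fixed cells, against 16.4% of all genes, and 6.98% in tubes, against 8.01%. The members' median difference of fixed cells minus tubes was 1.33 percentage points at 200 µM (all genes −3.18) and −4.635 at 800 µM (all genes −4.972). For 800 µM minus 200 µM it was −7.495 points in fixed cells (all genes −5.212) and −1.835 in tubes (all genes −3.395). The first of these medians was 0.0 points without tube 200 µM library A, 3.94 without tube 200 µM library B, 2.195 without fixed 200 µM library B, and 2.69 with a filter at 20 counts. The dose step in tubes was −2.855 and −0.225 points without tube 200 µM library A or B, −0.075 without tube 800 µM library B, −0.44 with the filter at 20 counts and −1.155 with the posterior mean.

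Single genes show the spread behind these medians. Zfp622 had 100% in both fixed libraries at 200 µM, against 79.41% and 83.02% in tubes, a difference of 18.785 points (limma adjusted p = 0.103). Zfp334 had 100% in both fixed libraries, against 71.91% and 85.99% in tubes (21.05 points, adjusted p = 0.104). Zfp180 had 100% and 95.79%, against 75.19% and 81.73% (19.435 points, adjusted p = 0.163). In all 3 the fixed libraries lay above the tube libraries. Their values of 100% were held at the upper bound of the fit, on which these p values depend in part. At 800 µM the smallest p values were those of Zfp334 (5.295 points, adjusted p = 0.185), Zfp326 (−14.325 points, 0.19) and Zfp638 (−23.525 points, 0.252).

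For the dose step in fixed cells, the smallest p values were those of Zfp131 (−19.76 points, adjusted p = 0.215), Zfp26 (−24.34 points, adjusted p = 0.222) and Zfp180 (−29.08 points, adjusted p = 0.251). In tubes they were those of Zfp386 (−19.115 points, adjusted p = 0.563), Zfp26 (−6.925 points, adjusted p = 0.567) and Zfp445 (−12.86 points, adjusted p = 0.575). Fixed 800 µM library A weighed on the fixed-cell values. Without it the median difference at 800 µM between fixed cells and tubes was 0.225 points, and that of the dose step in fixed cells −2.135 points. Without library B they were −10.28 and −11.62 points. In some fits without one of these libraries, single members passed in the ratio comparisons. Such a fit leaves 1 library in a group, and the share of all genes that passed in it is not at hand. No conclusion about members is drawn from those calls.

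The next comparisons asked how 4sU moved the total RNA of these genes. Few of them passed the test (edgeR quasi-likelihood, adjusted p below 0.05 over 11080 genes), and those that did mostly fell. All 212 passed the filter on low counts. In fixed cells at 800 µM, 1 rose and 4 fell (percent called over all genes 0.776 for rises, 1.89 for falls and 2.66 for both). At 200 µM in fixed cells 0 rose and 1 fell (0.244, 0.569 and 0.812). In tubes 0 rose and 2 fell at 800 µM (0.912, 0.957 and 1.87), and 0 rose and 4 fell at 200 µM (2.36, 1.39 and 3.75). The members' shares of falls, 1.887%, 0.472%, 0.943% and 1.887% in that order, were near those of all genes. These are levels in bulk RNA, in which fewer cells making a transcript and less RNA per cell cannot be told apart.

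The medians lay slightly below 0. In fixed cells the members' median log2 fold was −0.12 at 800 µM and −0.12 at 200 µM, against −0.0009 and −0.0023 over all genes. In tubes it was −0.08 at 800 µM and −0.07 at 200 µM, against 0.03 and 0.03 over all genes. Other genes whose ratio lay in the members' interquartile range (73.068% to 92.279%) had medians of −0.21 and −0.15 in fixed cells and −0.07 and −0.05 in tubes. The members' medians lay on both sides of these. Leaving out 1 library moved 3 of the members' medians by over 1.5 times. That at 200 µM in fixed cells was −0.1965 without fixed 200 µM library A. That at 800 µM in fixed cells was −0.0757 without unlabelled fixed library B. That at 200 µM in tubes was −0.1197 without unlabelled fixed library B, −0.1187 without fixed 800 µM library A and −0.046 without tube 200 µM library B. The comparisons of a procedure share their libraries without 4sU.

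**Figure D3:**
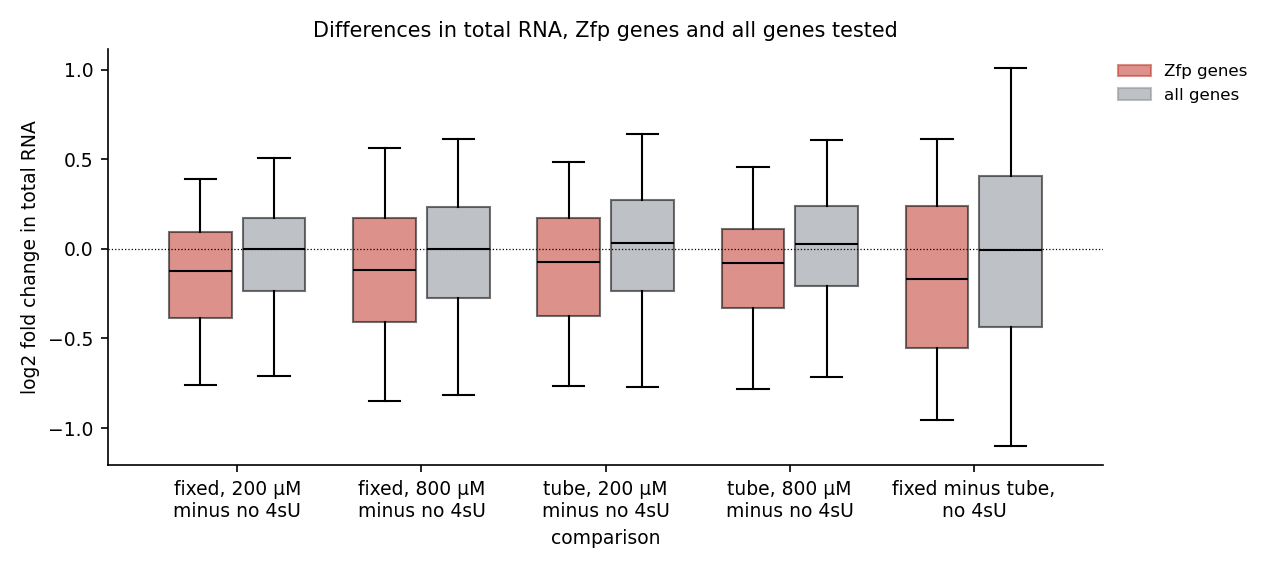
Log2 fold change in total RNA (vertical axis) for the 212 Zfp genes (red) and all 11080 genes tested (grey) in 5 comparisons. Boxes span the quartiles with the median as a line, and whiskers run from the 5th to the 95th percentile of genes. The red medians lie between −0.17 and −0.07, and the grey ones between −0.009 and 0.0333.

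Zfp367 (chr13:64133018-64153202) fell at both doses in tubes and at 800 µM in fixed cells. It codes for a protein of 2 fingers by the pattern, whose human counterpart was described as an activator in erythroid cells. In fixed cells it had 58.99 and 62.21 CPM without 4sU, 46.25 and 38.57 CPM at 200 µM, and 43.52 and 28.62 CPM at 800 µM. In tubes it had 70.01 and 56.9 CPM without 4sU, 27.95 and 28.03 CPM at 200 µM, and 32.38 and 30.32 CPM at 800 µM. Every labelled library lay below both unlabelled ones of its procedure. The log2 fold was −1.18 (SE 0.19, adjusted p = 0.00493) at 200 µM and −1.01 (SE 0.18, adjusted p = 0.0084) at 800 µM in tubes. In fixed cells it was −0.51 (SE 0.18, adjusted p = 0.223) at 200 µM and −0.76 (SE 0.18, adjusted p = 0.0348) at 800 µM.

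Zfp639 (chr3:32510259-32520833), a 9-finger protein also known as ZASC1, fell at both doses in fixed cells and at 800 µM in tubes. In fixed cells it had 43.39 and 47.5 CPM without 4sU, 26.07 and 30.08 CPM at 200 µM, and 21.96 and 22.43 CPM at 800 µM. In tubes it had 38.73 and 34.5 CPM without 4sU, 24.94 and 23.93 CPM at 200 µM, and 19.89 and 19.48 CPM at 800 µM. The level was lower at each higher dose in both procedures, with no overlap between the doses. In fixed cells the log2 fold was −0.70 (SE 0.16, adjusted p = 0.0473) at 200 µM and −1.03 (SE 0.17, adjusted p = 0.00266) at 800 µM. In tubes it was −0.58 (SE 0.17, adjusted p = 0.0579) at 200 µM and −0.89 (SE 0.17, adjusted p = 0.0103) at 800 µM.

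Zfp503 (chr14:21983959-21989601), a developmental corepressor also known as Nolz1, fell at 800 µM in fixed cells and at 200 µM in tubes. In fixed cells it had 37.57 and 34.38 CPM without 4sU, 30.08 and 23.31 CPM at 200 µM, and 13.75 and 25.61 CPM at 800 µM. In tubes it had 69.77 and 61.26 CPM without 4sU, 38.27 and 36.06 CPM at 200 µM, and 44.5 and 45.55 CPM at 800 µM. All labelled libraries were again below the unlabelled ones of their procedure. The log2 fold was −0.85 (SE 0.22, adjusted p = 0.0461) at 800 µM in fixed cells and −0.82 (SE 0.21, adjusted p = 0.0376) at 200 µM in tubes.

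The promoters of these 3 genes are shown because each gene fell in more than 1 comparison. Each sequence, from RefSeq on GRCm38.p6, runs from 250 bases before the gene's start to 50 after it. RefSeq's start of Zfp639 lies downstream of the GENCODE gene start given above, so that its whole window is inside the GENCODE gene. Capitals mark matches, on either strand, to the motif CCAAT (bound by NF-Y), the GC box GGGCGG, the E2F motif TTTCCCGC and the CRE motif TGACGTCA, and no matches overlapped.
Zfp367, chr13:64153150-64153449, minus strand: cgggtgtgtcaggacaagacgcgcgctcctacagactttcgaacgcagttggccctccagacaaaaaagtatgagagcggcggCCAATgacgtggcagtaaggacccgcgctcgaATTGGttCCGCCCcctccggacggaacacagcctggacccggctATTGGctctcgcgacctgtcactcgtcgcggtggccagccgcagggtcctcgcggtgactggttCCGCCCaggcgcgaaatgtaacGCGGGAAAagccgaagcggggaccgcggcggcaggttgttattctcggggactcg
Zfp639, chr3:32510342-32510641, plus strand: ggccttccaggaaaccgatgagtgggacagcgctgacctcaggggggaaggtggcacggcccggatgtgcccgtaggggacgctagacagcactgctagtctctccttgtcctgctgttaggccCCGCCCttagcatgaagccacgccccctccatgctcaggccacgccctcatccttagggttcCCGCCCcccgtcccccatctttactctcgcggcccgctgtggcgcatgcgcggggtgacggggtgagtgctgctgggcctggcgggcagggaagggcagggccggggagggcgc
Zfp503, chr14:21989552-21989851, minus strand: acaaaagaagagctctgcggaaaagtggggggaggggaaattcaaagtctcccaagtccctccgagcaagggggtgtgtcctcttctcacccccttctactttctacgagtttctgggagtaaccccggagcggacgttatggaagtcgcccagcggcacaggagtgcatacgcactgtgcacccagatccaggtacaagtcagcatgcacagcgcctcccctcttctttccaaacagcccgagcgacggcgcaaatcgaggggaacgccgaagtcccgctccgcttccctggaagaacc
The Zfp367 promoter held 3 matches to CCAAT, 2 to GGGCGG and 1 to TTTCCCGC, that of Zfp639 held 2 to GGGCGG, and that of Zfp503 held none of the 4. CCAAT occurred in 49.412% of the 170 member promoters in the table, against 38.02% of all 27025 promoters. GGGCGG occurred in 50.0%, against 35.922%, TTTCCCGC in 3.529%, against 1.114%, and TGACGTCA in 2.353%, against 1.854%. The 27025 promoters were not filtered by level in these cells, as the members were, and the part of level was not tested. The promoters of Zfp367, Zfp639 and Zfp503 shared no one of these motifs.

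Zfp335, a subunit of a histone H3 lysine 4 methyltransferase complex, had 29.68 and 19.67 CPM in fixed cells without 4sU, 23.79 and 18.71 CPM at 200 µM, and 9.647 and 14.4 CPM at 800 µM. It fell at 800 µM with a log2 fold of −1.02 (SE 0.25, adjusted p = 0.0381). In tubes it had 24.06 and 23.99 CPM without 4sU and 20.53 and 17.57 CPM at 800 µM (−0.33, SE 0.24, adjusted p = 0.512). The difference between the procedures was −0.68 (SE 0.35, adjusted p = 0.825).

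Zfp207 was the one member that rose. In fixed cells it had 185.2 and 204.5 CPM without 4sU, 232.0 and 247.1 CPM at 200 µM, and 296.6 and 254.1 CPM at 800 µM. In tubes it had 164.1 and 166.9 CPM without 4sU, 205.5 and 207.5 CPM at 200 µM, and 213.9 and 201.5 CPM at 800 µM. All 8 labelled libraries lay above the unlabelled ones of their procedure, and the log2 fold of 0.50 at 800 µM in fixed cells (SE 0.12, adjusted p = 0.0381) passed.

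**Figure D4:**
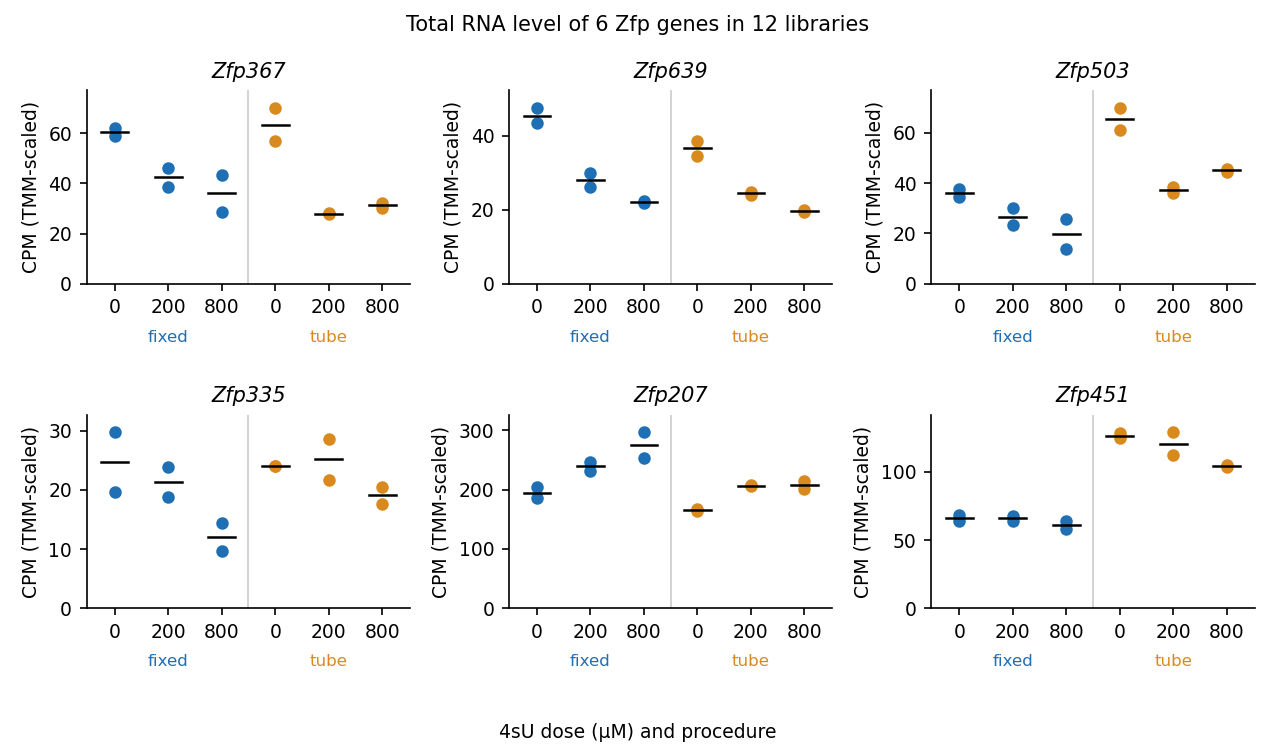
Total RNA level (CPM, vertical axes from 0) of 6 Zfp genes in the 12 libraries, by 4sU dose in µM, with fixed cells in blue on the left and tubes in orange on the right of each panel. Dots are single libraries and black lines are group means. Zfp367, Zfp639 and Zfp503 are lower with 4sU in both procedures, Zfp207 is higher, and Zfp451 differs mainly between procedures.

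In tubes at 200 µM, 2 further genes fell. Zfp827, which brings the NuRD complex to telomeres, had 9.89 and 10.25 CPM at 200 µM, against 19.49 and 20.82 CPM without 4sU (log2 fold −0.9991, SE 0.245, adjusted p = 0.0345). Zfp462, a protein of 33 fingers by the pattern with roles in heterochromatin and development, had 16.99 and 13.16 CPM, against 28.87 and 27.76 CPM (−0.92, SE 0.24, adjusted p = 0.0432). At 800 µM in tubes Zfp462 was back at 25.75 and 21.24 CPM. Over the 4 comparisons, 7 members passed at least once and 6 of them fell.

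Among members with a mean count of at least 100, the 3 highest and 3 lowest folds at 800 µM in each procedure included some that did not pass. Zfp180 had 36.08 and 39.1 CPM at 800 µM in tubes, against 26.22 and 22.01 CPM without 4sU (0.64, adjusted p = 0.0755). In fixed cells it had 36.54 and 32.81 CPM at 800 µM, against 24.23 and 22.87 CPM (0.56, adjusted p = 0.0966). Zfp180 was thus higher with 4sU in both procedures without overlap, short of the threshold. Zfp365, linked to p53, had 45.36 and 30.8 CPM at 800 µM in fixed cells, against 24.61 and 20.63 CPM (0.75, adjusted p = 0.0563), and Zfp26 had 21.76 and 30.13 CPM, against 14.46 and 18.55 CPM (0.65, adjusted p = 0.103). In tubes at 800 µM the fold was 0.42 for Zfp511 (adjusted p = 0.37), 0.36 for Zfp24 (adjusted p = 0.27) and −0.69 for Zfp637 (adjusted p = 0.134).

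By role, the developmental regulators (Zfp462, Zfp503, Zfp516, Zfp521, Zfp568, Zfp703) had negative folds in fixed cells in 6 of 6 at either dose, with 1 fall passing at 800 µM, and in tubes in 5 of 6 at either dose, with 2 falls passing at 200 µM. The 8 corepressor and chromatin partners had 7 negative folds in each fixed-cell comparison, with none passing, and 7 in tubes at 200 µM, where Zfp827 passed. In tubes at 800 µM 6 of the 8 were negative and none passed. The 11 genes listed for RNA and ribosome roles had 6 negative folds in each of the 4 comparisons, and Zfp207 as the 1 rise. Among all 212 members, 140 and 133 folds were negative in fixed cells at 200 µM and 800 µM, and 125 and 123 in tubes. Among all 11080 genes, 5574 and 5550 were negative in fixed cells, and 5148 and 5137 in tubes. None of the 101 KRAB genes passed in any of the 4, and their medians ran from −0.11 to −0.05. Genes without the pattern had medians of −0.18 to −0.11 and deeper counts.

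None of these calls passed with each library of its own comparison left out in turn. Zfp639 at 800 µM in fixed cells passed in 3 of 4 such fits, with an adjusted p up to 0.0641. Falls at 200 µM in tubes numbered 0 without unlabelled tube library A or tube 200 µM library B. They numbered 1 without unlabelled tube library B, tube 200 µM library A, either tube 800 µM library or unlabelled fixed library A, and 2 without unlabelled fixed library B. They numbered 11 and 9 without fixed 800 µM library A or B, where falls over all genes were also more frequent, at 4.03% and 3.1%. Falls at 800 µM in tubes numbered 0 without unlabelled tube library A or either tube 800 µM library, 1 without unlabelled tube library B, and 6 without either fixed 800 µM library, where 2.4% and 2.17% of all genes fell. The fall at 200 µM in fixed cells was lost without any one of the tube 200 µM, tube 800 µM, unlabelled fixed or fixed 200 µM libraries. Without fixed 800 µM library A or B, falls there were more numerous, as were those over all genes. Falls at 800 µM in fixed cells numbered 0 without unlabelled fixed library B, 1 without unlabelled fixed library A or either tube 800 µM library, 2 without either fixed 200 µM library and 12 without fixed 800 µM library B, where 4.31% of all genes fell. Its 1 rise was lost without any one of the tube 800 µM, unlabelled fixed or fixed 200 µM libraries. Rises there were more numerous without fixed 800 µM library A or B, as were those over all genes. With scaling on low-ratio genes 0 members rose and 9 fell there, where 4.13% of all genes fell. DESeq2 called 2 rises there, adding Zfp365, and 5 falls, where 3.14% of all genes rose and 2.05% fell.

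Whether 4sU acted differently in the 2 procedures was tested as a difference of effects. No member passed at either dose, nor did any gene (percent called 0.0 at 200 µM and at 800 µM). At an unadjusted p below 0.05, 5 members had a higher and 9 a lower effect in fixed cells at 200 µM, and 6 and 6 at 800 µM. These were 2.36% and 4.25% of members at 200 µM, against 3.4% and 5.56% of all genes, and 2.83% and 2.83% at 800 µM, against 2.15% and 3.75%. DESeq2 called 11 genes at 200 µM and 0 at 800 µM, among them 0 members. At 200 µM the smallest p values were those of Zfp110, which binds the p75 neurotrophin receptor (−1.14, SE 0.33, adjusted p = 0.328), Zfp395 (−1.05, adjusted p = 0.476) and Zfp462 (0.90, adjusted p = 0.478). At 800 µM they were those of Zfp316 (−1.37), Zfp68 (0.89) and Zfp800 (−0.72), each with an adjusted p of 0.822. The members' median difference was −0.02 at 200 µM and 0.01 at 800 µM, against −0.06 and −0.04 over all genes.

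The last comparison asked how total RNA differed between the procedures without any 4sU. It moved far more members: 6 were higher and 34 lower in fixed cells (percent called over all genes 16.2 for rises, 15.2 for falls and 31.4 for both), and the members' median log2 fold was −0.17, against −0.009 over all genes. Summed over the 212 genes, the level was 3862 and 3926 CPM in fixed cells, against 4429 and 4575 CPM in tubes. The share of members that fell (16.038%) was close to that of all genes, and the share that rose was below it (2.83%). Of the 72 members with a mean count of at least 100, 29.167% fell. The share of all genes at that depth is not at hand.

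Zfp451 (chr1:33761545-33814595) had the smallest p. It had 68.0 and 64.29 CPM in fixed cells, against 128.2 and 124.9 CPM in tubes (−0.94, SE 0.13, adjusted p = 4.95e-05). Zfp329 had 9.768 and 12.15 CPM, against 24.3 and 26.76 CPM (−1.21, SE 0.22). Zfp142, with the most fingers, had 15.78 and 15.19 CPM, against 34.4 and 35.29 CPM (−1.17, SE 0.22). In all 3 genes both fixed libraries lay far below both tube libraries.

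Zfp462 had 9.581 and 13.27 CPM in fixed cells, against 28.87 and 27.76 CPM in tubes (−1.30, SE 0.25). Zfp318, which controls splicing of immunoglobulin D transcripts in B cells, had 23.29 and 21.27 CPM, against 39.7 and 44.41 CPM (−0.92). Zfp512 had 26.68 and 24.95 CPM, against 41.62 and 62.65 CPM (−1.02). Libraries of the procedures did not overlap in these genes, nor in Zfp365 (−1.003), Zfp292 (−0.70), Zfp503 (−0.86) and Zfp618 (−0.79), which complete the 10 smallest p values, with adjusted p up to 0.00447.

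Rises were fewer. Zfp511 had 17.09 and 22.71 CPM in fixed cells, against 10.83 and 11.9 CPM in tubes (0.81, SE 0.23, adjusted p = 0.0134). The other rises were Zfp938 (0.99), Zfp961 (0.84), Zfp992 (0.84), Zfp560 (0.89) and Zfp110 (0.64), with adjusted p of 0.0261 to 0.0449. They fall outside the 10 smallest p values and are named because they are all the rises. The counts of Zfp992 were fractional in all 12 libraries, as above.

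Length ran with the difference. The 71 longest members (4639 to 13834 bases) had 1 rise and 26 falls and a median of −0.48. Of the 3049 genes of all in that class, 135 rose and 949 fell, with a median of −0.34, so that 36.6% of the long members fell, against 31.1% of long genes. The 71 shortest members (1096 to 3184 bases) had 3 rises and 1 fall and a median of 0.01. Of the 5089 short genes of all, 1348 rose and 319 fell, with a median of 0.23, so that 4.23% of the short members rose, against 26.5% of short genes. Across genes, Spearman's rho of the fold with length was −0.414 over the 212 members and −0.416 over all 11080 genes, which share libraries and are not independent. The 110 members without the KRAB pattern had 1 rise and 26 falls (0.909% and 23.636%). The 101 KRAB genes had 5 rises and 7 falls (4.95% and 6.931%). Over all genes 16.2% rose and 15.2% fell. KRAB genes were also shorter, with a median of 3707 bases, against 4060.5 bases in those without the pattern. The part of length, count depth and class in these calls was not tested.

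**Figure D5:**
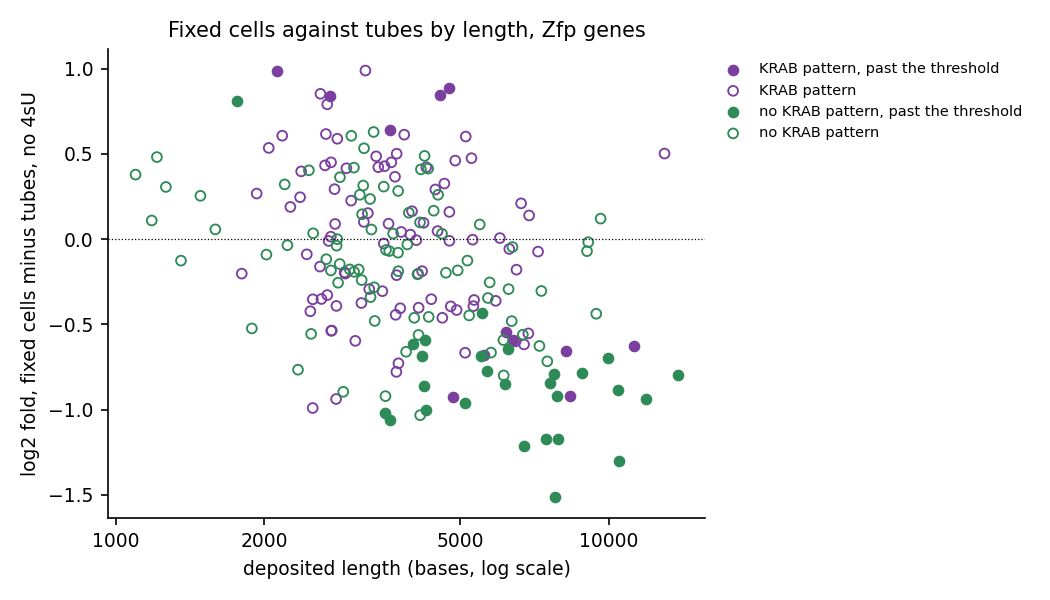
Log2 fold of fixed cells minus tubes without 4sU (vertical axis) against the deposited length in bases (log scale) for the 211 Zfp genes with a coding transcript, purple with and green without the KRAB pattern. Filled dots passed the threshold. Filled dots below 0 lie mostly to the right, where the longest members have a median of −0.48.

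Of these 40 genes 9, all falls, passed with each library of the 2 groups left out in turn: Zfp451, Zfp142, Zfp292, Zfp462, Zfp512, Zfp329, Zfp365, Zfp503 and Zfp318. Falls were fewer without tube library B or fixed library A or B, and rises were fewer without any one of these libraries or tube library A. Calls over all genes were also fewer in those fits. With scaling on low-ratio genes, 0 members rose and 64 fell, where 8.6% of all genes rose and 28.3% fell.

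The partners through which KRAB proteins silence were compared as a list of 37 genes, none of them a member. Trim28, the KRAB corepressor, had 353.3 to 661.7 CPM in fixed cells, against 498.0 to 744.8 CPM in tubes, and passed in none of the 7 comparisons. Setdb1, the histone H3 lysine 9 methyltransferase that it recruits, had 14.78 to 26.39 CPM in fixed cells, against 17.87 to 36.09 CPM in tubes, and also passed in none. Fam208a (Tasor), of the HUSH silencing complex, had 7.522 and 11.28 CPM at 800 µM in tubes, against 23.82 and 28.75 CPM without 4sU (−1.49, SE 0.32, adjusted p = 0.0216), and also fell at 200 µM (−1.41, adjusted p = 0.0272). In fixed cells at 800 µM it had 4.105 and 7.198 CPM, against 9.017 and 18.55 CPM (−1.27, adjusted p = 0.0628).

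Of the 37, 0 rose and 1 fell at 800 µM in fixed cells (Smarcad1, −0.67), 0 and 0 at 200 µM there, 0 and 1 in tubes at 800 µM (Fam208a), and 0 and 2 at 200 µM (Fam208a and Cbx1, −0.62). Between procedures without 4sU, 7 were higher and 14 lower in fixed cells, with a median of −0.37. These were 18.9% and 37.8% of the list, against 16.2% and 15.2% of all genes. Subunits of the NuRD complex went both ways. Chd4 (−0.85), Gatad2b (−0.83), Chd3 (−0.70), Mbd3 (−0.62) and Gatad2a (−0.62) fell. Hdac1 (0.67), Rbbp4 (0.54) and Rbbp7 (0.54) rose, and Hdac2, Mta1 and Mta2 did not pass. Also among the rises was Sumo2 (0.87), which codes for a SUMO modifier. The 28 partners with enough counts had library medians of the ratio of 28.575% to 41.44%, near those of all genes and below every median of the Zfp members.

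Related zinc finger families gave a comparison. Of 30 Zbtb genes, transcription factors with a BTB domain, none rose or fell in fixed cells, Zbtb33 rose in tubes at 800 µM (0.99), and 1 rose and 6 fell between procedures. Of 10 Klf genes, growth and differentiation factors with 3 fingers, Klf4 rose (0.64) and Klf2 fell (−0.83) in fixed cells at 800 µM. Klf5 rose in tubes at 200 µM (0.56), as did 2.36% of all genes. Between procedures 4 Klf genes fell (40.0%), against 15.2% of all genes. In lists this short, 1 call is 3.333% of the Zbtb and 10.0% of the Klf genes. Library medians of the ratio were 72.08% to 86.215% for 4 Zbtb genes and 76.9% to 100% for 7 Klf genes, in the range of the Zfp members or above it. No difference between the families was tested.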

How the data were processed

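A single deposited table gave all values. Expected counts per gene are what the authors deposited as read counts, some of them fractional. How reads were divided and whether strand was used is not stated in these sources. The deposited new-to-total ratio is a fraction per gene and labelled library (maximum a posteriori, posterior mean and quantiles), per the file headers, printed here as a percent. The deposited alpha and beta scores of that ratio were not used. STAR 2.7.10b, Bowtie2 2.3.0 and cutadapt were used per the submitters' processing notes, which give them no roles. No build is given in those sources, and all coordinates come from GENCODE M21 (GRCm38) by gene ID, which held 15197 of 15217 genes and every member. Promoters are RefSeq's (GRCm38.p6), with 170 of 212 members matched by symbol.

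The members, gene lists and tests were chosen with earlier results of these data known. Counts were rounded and fitted with edgeR 4.0.16 (R 4.3.3; quasi-likelihood F test, TMM, filterByExpr with minimum count 10 and total 15, 11080 genes, Benjamini-Hochberg adjustment at 0.05) in 1 fit of 6 groups without a replicate block. CPM use TMM-scaled library sizes, except for the cell type markers, which use plain library totals. The ratio was held within 0.005 and 0.995 and fitted with limma 3.58.1 (trend) on the logit scale at 5532 genes. Alternatives were DESeq2 1.42.0, TMM scaling on the lowest-ratio genes, other filters on low counts, the posterior mean, a replicate block and each library left out. Both fits were tested on simulated data. No label pairs libraries by the letters A and B, and the main fits did not treat them as pairs.

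Named genes were, per count comparison, up to 10 passing members by smallest p (else the 3 smallest), the 3 largest folds each way at 800 µM with a mean count of at least 100, the 5 highest and 5 lowest ratios, the 6 highest levels per length, the 3 smallest p per ratio comparison, the members at the threshold, and Trim28, Setdb1 and Fam208a. Others named were chosen after their values were seen. Fingers were searched as C, 2 to 4 residues, C, 12 residues, H, 3 to 5 residues, H. KRAB patterns were searched in the first 400 residues.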

Additional observations from a re-analysis of the deposited data

How the results depend on the processing

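The direction of every median stayed below 0 for 4sU and for fixed cells against tubes under each alternative. TMM scaling on genes of low ratio alone moved the median of all genes to −0.12 (tubes, 200 µM), −0.10 (tubes, 800 µM), −0.08 (fixed, 200 µM), −0.13 (fixed, 800 µM) and −0.27 (fixed against tubes), and that of members to −0.22, −0.20, −0.20, −0.25 and −0.43. The members' median stayed 0.10 to 0.16 below that of all genes. Under it 10, 5, 2, 9 and 64 members fell, and 0 rose at 800 µM in fixed cells and 0 against tubes. Over all genes 3.73%, 2.22%, 1.27%, 4.13% and 28.3% fell, and 0.415% and 8.6% rose. Without a filter on low counts 8, 6, 3 and 11 members fell in the 4 comparisons with 4sU, and 1 rose at 800 µM in tubes and 2 in fixed cells. Over all genes 2.48%, 1.55%, 1.15% and 2.85% fell, and 1.67% and 2.58% rose at 800 µM. DESeq2 called 2 rises at 800 µM in fixed cells, where 3.14% of all genes rose, and gave a median of −0.083 at 200 µM there. Restricting to a mean count of 100 left 2 falls in tubes at 200 µM, a median of −0.065 in fixed cells at 200 µM, and 1 rise and 21 falls against tubes. Those 21 falls were 29.167% of the 72 members, against 16.038% of all 212 and 15.2% of all genes. The share of all genes at that depth is not at hand. Over all members the median ratio was 85.285% and 86.62% in tubes at 800 µM and 88.875% and 91.235% in fixed cells at 200 µM.

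A replicate block left 2 falls in tubes at 200 µM and 0 in fixed cells at 200 µM. Same-lettered libraries did not deviate together across genes (r from −0.10 to 0.09 over 15 pairs of groups, none over 0.1). No label pairs them. With 2 libraries a group this check could miss a small shared effect, so it does not settle whether they were paired.

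With each library left out in turn, falls ranged from 0 to 11 (tubes, 200 µM), 0 to 6 (tubes, 800 µM), 0 to 2 (fixed, 200 µM), 0 to 12 (fixed, 800 µM) and 15 to 43 (fixed against tubes). Rises ranged from 0 to 1 (tubes, 800 µM), 0 to 3 (fixed, 800 µM) and 0 to 7 (fixed against tubes). The members' median ranged from −0.1965 to −0.0837 (fixed, 200 µM), −0.1303 to −0.0757 (fixed, 800 µM), −0.1197 to −0.046 (tubes, 200 µM), −0.1151 to −0.0755 (tubes, 800 µM) and −0.2081 to −0.1301 (fixed against tubes), and for the difference of effects at 200 µM from −0.11 to 0.11. Some members passed the ratio tests between procedures and for the dose step in fixed cells. Those fits leave 1 library in a group, and no conclusion is drawn from their calls. Calls on total RNA over all genes moved in these fits as well. The cause of these moves was not tested. With 2 libraries a group and a median of 72.6 counts, small changes in most members are below what these data can show.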
